A study of Mus musculus with 6 samples.

Results

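The comparison described here is that of primary mouse hepatic stellate cells given TGF-beta with untreated cells (Control), across all genes of the deposited table. It takes 4 of the 6 libraries of the study, 2 in each group, and the table lists 56691 genes, of which 15987 had enough reads to be tested. The cells came from the liver of mice whose genotype the labels give as WT, and both groups share that origin. Control cells had no treatment named in the labels, and the other group had TGF-beta alone. The isoform, dose and duration of TGF-beta, the time in culture, and the age and number of the mice are not given in the sources used here. A further group of 2 libraries was given TGF-beta together with K-80003. It entered the count filter, the scaling and the estimate of the spread between libraries, but not the difference between the groups. With the 4 libraries alone, 15559 genes were tested. Nothing says whether the libraries of a group came from separate mice or cultures, so p-values measure the spread between these libraries, which may be technical.

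Hepatic stellate cells lie between hepatocytes and the sinusoid, store vitamin A when quiescent and turn into matrix-producing myofibroblasts when activated. TGF-beta binds a pair of receptor kinases at the cell surface, and these phosphorylate SMAD proteins that enter the nucleus and act on target genes together with partner transcription factors. In stellate cells the pathway is best known for collagen production. The description here turns to transcription factors, receptors, secreted factors and transporters, and to the genes that fell.

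Levels are read counts relative to library size after TMM scaling (CPM), a correction for differences in library composition, and pairs of values are in the order replicate 1, replicate 2. The libraries are called Control 1, Control 2, TGF-beta 1, TGF-beta 2, K-80003 1 and K-80003 2. Totals ran from 15646093 to 19004144 counts over the 6 libraries, so that 3 counts, the limit that a count of 0 allows, correspond to at most 0.192 CPM; such limits cover counting error only. All 16 stellate cell markers were measured, at a summed level of 10901 and 9715 CPM in Control and 8760 and 9877 CPM with TGF-beta, and the 2 groups overlapped. Much of that sum came from Reln and Vim. Reln stood at 3935 and 1872 CPM in Control and 1294 and 2778 CPM with TGF-beta. Vim stood at 2099 and 2916 CPM in Control and 3444 and 2779 CPM with TGF-beta. Of the 16, 10 had lower values and 1 was called, the collectin gene Colec11, which fell. The median log2 fold change was -0.35, and DESeq2 called 4 lower and 1 higher. Lrat was lower but not called, at 1101 and 776 CPM in Control and 392 and 478 CPM with TGF-beta (log2 fold change -1.11). Pdgfrb was higher but not called, at 582 and 408 CPM in Control and 932 and 1338 CPM with TGF-beta (log2 fold change 1.20). All 10 myofibroblast markers had higher values with TGF-beta, at 9778 and 10222 CPM in Control and 23001 and 22951 CPM with TGF-beta in sum, and 5 of them were called. Hepatocyte markers summed to between 10.5 and 19.2 CPM and macrophage markers to between 22.3 and 28.4 CPM, and lymphocyte and neutrophil markers stayed under 1 CPM in sum in each of the 4 libraries. In bulk RNA, fewer cells of a type and less RNA per cell cannot be told apart.

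The 2 libraries of each group differed from each other along the exonic length of genes. Control 1 was higher than Control 2 for long genes and lower for short ones, with medians of 0.49 for 1127 genes of 10000 bases or more and -0.51 for 1117 genes under 2000 bases, as log2 differences of level. TGF-beta 2 differed from TGF-beta 1 in the same way, with medians of 0.47 and -0.42 for the same genes. The difference of the group means did not follow length, with medians of 0.03 and 0.05. Among genes with a mean of at least 10 CPM, Spearman's rho with length was 0.67 for Control 1 minus Control 2, 0.69 for TGF-beta 2 minus TGF-beta 1 and -0.02 for TGF-beta minus Control, across 9829 genes that share libraries and are not independent replicates. Each group held 1 library of each kind, so the difference within a group enters the spread against which every gene below was tested. A gene given below as not called is therefore not shown to be unchanged.

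**Figure D1:**
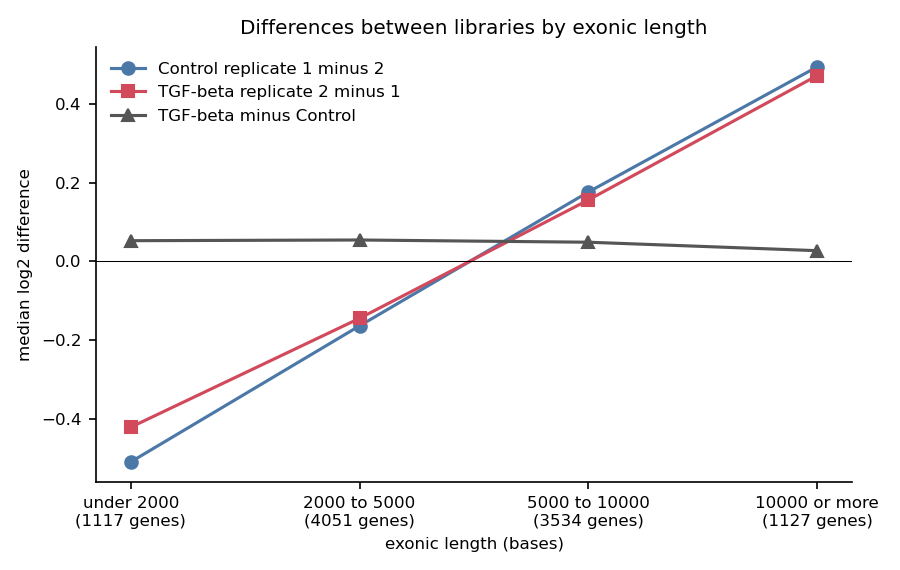
The y axis is the median log2 difference of level between libraries or groups, and the x axis the exonic length of genes in bases, for genes with a mean of at least 10 CPM. Both lines between replicates climb from under -0.4 for the shortest genes to over 0.4 for the longest, while the line for TGF-beta minus Control stays between 0 and 0.1.

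TGF-beta changed 470 genes, or 2.94% of those tested, at an adjusted p under 0.05 (edgeR's quasi-likelihood test, Benjamini-Hochberg over all genes tested). Of these, 170 (1.06%) rose and 300 (1.88%) fell. All 470 had no overlap between the 4 libraries, against 18.5% of all tested genes with no overlap and higher values and 19.8% with no overlap and lower values. The genes that fell were lower in abundance, with a median of 4.36 FPKM (reads scaled for gene length and library total) in Control, those that rose had a median of 9.25 FPKM with TGF-beta, and all genes tested had a median of 4.935 FPKM in the group where each was higher. Falls of 4-fold or more were found for 95 genes and rises of that size for 40. The counts without Control 1, Control 2, TGF-beta 1, TGF-beta 2, K-80003 1 and K-80003 2 were 70, 38, 47, 49, 77 and 74 higher and 116, 63, 42, 53, 141 and 131 lower. A total of 32 genes (0.2%) rose and 32 genes (0.2%) fell whichever library was left out, and these 64 are called library-independent here. With library totals alone as the scaling, the median of all genes shifted from 0.01 to -0.11 (log2), and 132 genes were higher and 377 lower, so that 25.9% rather than 36.2% of the called genes were higher. The excess of falls also depended on how the difference between replicates was treated in the fit, as given in the last section.

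**Figure D2:**
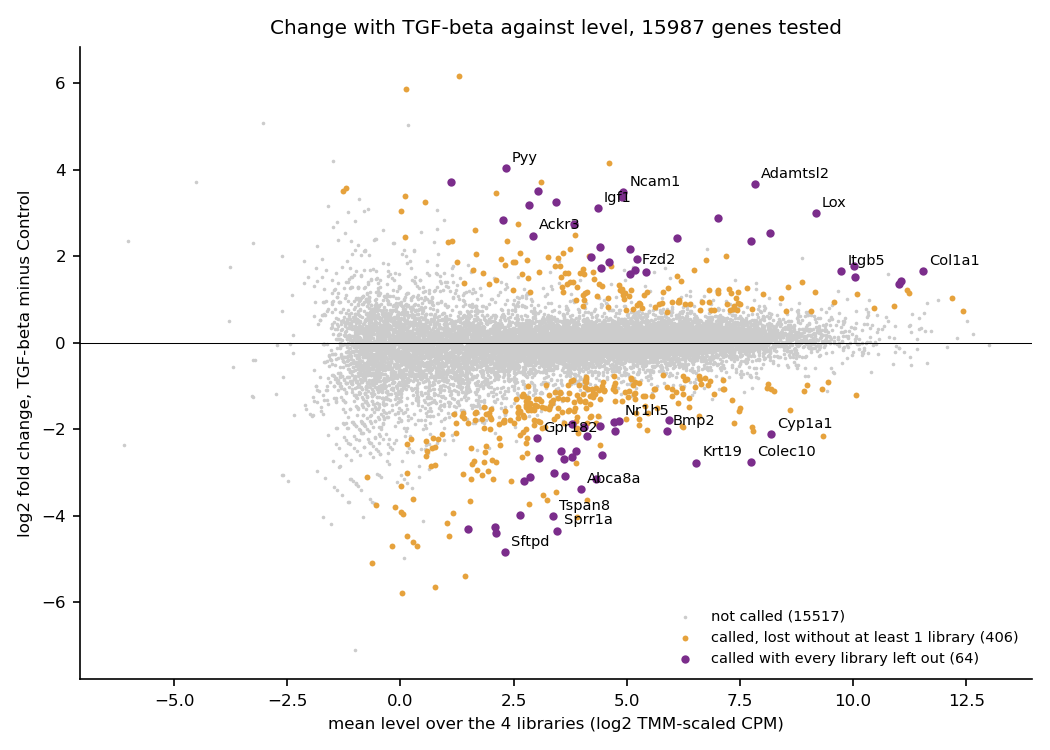
Each point is 1 of the 15987 genes tested, with the log2 fold change (TGF-beta minus Control) on the y axis and the mean level over the 4 libraries (log2 CPM) on the x axis. The 64 genes called with every library left out lie mostly beyond a change of 1.5 in either direction, with Adamtsl2 at 3.66 and Sftpd at -4.85.

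Products that work outside the cell or at its surface made up more of the called genes than of the genes tested. Genes annotated to the extracellular region in the deposited table made up 7.54% of the genes tested, 33.5% of those that rose and 23.3% of those that fell. Plasma membrane genes made up 15.7% of those tested and 28.2% and 31.7% of those that rose and fell. Genes annotated to the nucleus made up 36.2% of those tested and 24.1% and 19% of those that rose and fell. These shares use the annotation as the table gives it, and a gene can count in several places. Of the genes named below, Agtr1a, Csf1r, Dusp1, Entpd2, Flrt3, Glp2r, Gpr182, Kcnk3, Kcnq1, Lhx2, Mfap4, Slc16a3, Slco2b1 and Vil1 overlap another tested gene, and their reads cannot be assigned with certainty. The same holds for Sox8, also named below. Overlap with genes that were not tested was not searched.

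**Figure D3:**
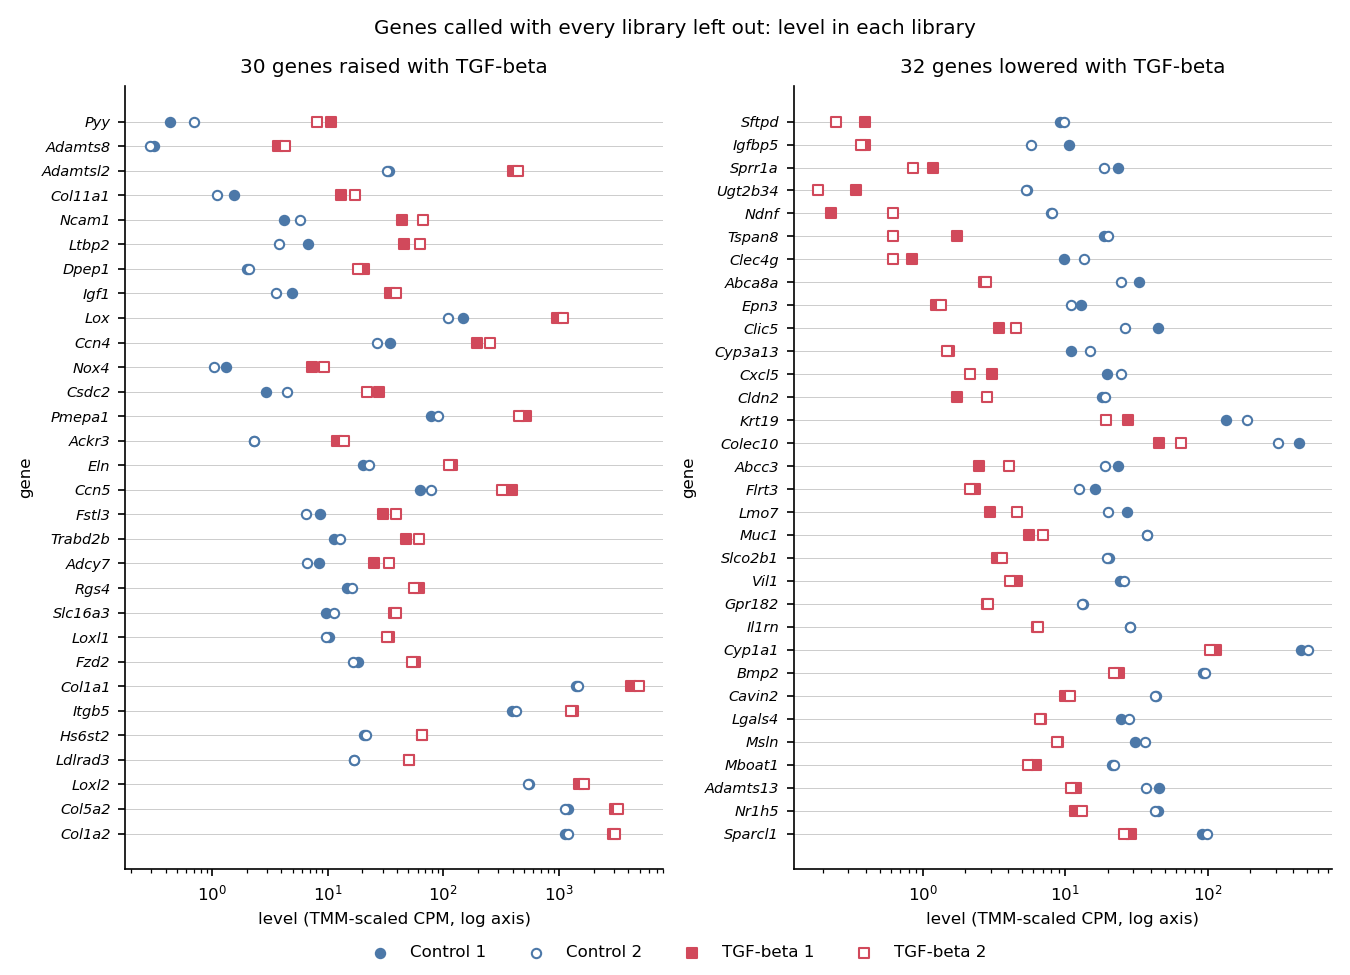
The x axis is the level in CPM on a log scale for each of the 4 libraries, circles for Control and squares for TGF-beta, and each line is 1 of 62 genes called with every library left out, ordered by fold change. For all 62 genes shown the circles and squares do not overlap, and the fold change is largest for Pyy among the rises and Sftpd among the falls.

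Transcription factors were called about as often as all genes. Of 406 measured members of 10 factor families, 4 rose (0.985%) and 7 fell (1.72%), against 1.06% and 1.88% of all genes tested, and the median log2 fold change was -0.05 against 0.01 over all genes. The counts without Control 1, Control 2, TGF-beta 1, TGF-beta 2, K-80003 1 and K-80003 2 were 3, 0, 1, 1, 1 and 1 higher and 1, 1, 1, 1, 1 and 1 lower. The library-independent call was Nr1h5, a nuclear receptor of the farnesoid X receptor group (ENSMUSG00000048938, chromosome 3, 102846974 to 102871449, GRCm39), at 45.1 and 43.01 CPM in Control and 11.8 and 13.1 CPM with TGF-beta. Nr1h5 fell by 1.82 on the log2 scale (SE 0.17, adjusted p = 0.00789). Every TGF-beta library was thus more than 3-fold below every Control library. Its relative Nr1h4, the bile acid receptor FXR, stood at 119 and 132 CPM in Control and 67.8 and 72.5 CPM with TGF-beta. Nr1h4 fell by 0.84 on the log2 scale (SE 0.14, adjusted p = 0.0358). The call of Nr1h4 did not hold in any fit without a library (adjusted p = 0.0856 without Control 1, 0.144 without Control 2, 0.212 without TGF-beta 1, 0.186 without TGF-beta 2, 0.13 without K-80003 1 and 0.134 without K-80003 2).

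Heyl, a repressor of the bHLH family that acts downstream of Notch, went from 5.01 and 4.11 to 16.5 and 19.2 CPM (log2 fold change 1.96, SE 0.20, adjusted p = 0.00824), a call lost only in the fit without Control 2 (adjusted p = 0.0505). Creb3l1, a bZIP factor held in the endoplasmic reticulum membrane until it is cleaved and known to act on collagen genes, was at 83.7 and 71.1 CPM in Control and 171 and 189 CPM with TGF-beta. Creb3l1 rose by 1.22 on the log2 scale (SE 0.16, adjusted p = 0.0163). Its adjusted p was 0.0767 without Control 2, 0.0765 without TGF-beta 1, 0.0864 without TGF-beta 2, 0.0552 without K-80003 1 and 0.0581 without K-80003 2. Egr2, an early-response zinc finger factor, rose by 1.18, and Prdm1, a transcriptional repressor of differentiating lymphoid and epithelial cells, went from 5 and 1 counts to 35 and 32. The factors that fell included Klf5 (-1.39), best known from epithelia, the ETS factors Ets2 (-0.86) and Erg (-0.87), the latter a factor of endothelial cells, and the zinc finger gene Zbtb8b (-1.54). The calls of Egr2, Klf5, Ets2, Erg and Zbtb8b were each lost with any library left out, and that of Prdm1 in 5 of the 6 such fits. Leaving out 1 library gave an adjusted p of up to 0.119 for Egr2 without TGF-beta 1, 0.105 for Prdm1 without TGF-beta 1, 0.119 for Klf5 without TGF-beta 1, 0.238 for Ets2 without TGF-beta 1, 0.265 for Erg without TGF-beta 2 and 0.171 for Zbtb8b without TGF-beta 1. Among 49 homeobox, 21 forkhead, 15 SOX and TCF, and 43 T-box, TEAD, MADS, NFAT, NFI and EBF genes, none was called by edgeR. At an unadjusted p under 0.05 there were 2 higher and 4 lower homeobox, 5 higher and 2 lower forkhead, 2 higher and 2 lower SOX and TCF, and 2 higher and 2 lower genes of the last group, and DESeq2 called 1 forkhead gene higher and 1 lower and 0 of the others. The members with the smallest p there included Lhx2, a homeobox factor of quiescent stellate cells, at 116 and 128 CPM in Control and 91.2 and 80.95 CPM with TGF-beta (log2 fold change -0.51, SE 0.15, adjusted p = 0.163), and Foxa2, a forkhead factor of liver epithelium, at 3.01 and 3.07 CPM in Control and 0.905 and 0.863 CPM with TGF-beta. Foxa2 was not called (log2 fold change -1.77, SE 0.35, adjusted p = 0.0559). Sox8 and Grhl3, which had the smallest p of their lists, had higher values and were not called either. Sox8 had 4 and 3 counts in Control and 26 and 19 with TGF-beta (log2 fold change 2.61, SE 0.51, adjusted p = 0.0549). Grhl3 had 16 and 15 counts in Control and 54 and 39 with TGF-beta (log2 fold change 1.54, SE 0.35, adjusted p = 0.0868).

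**Figure D4:**
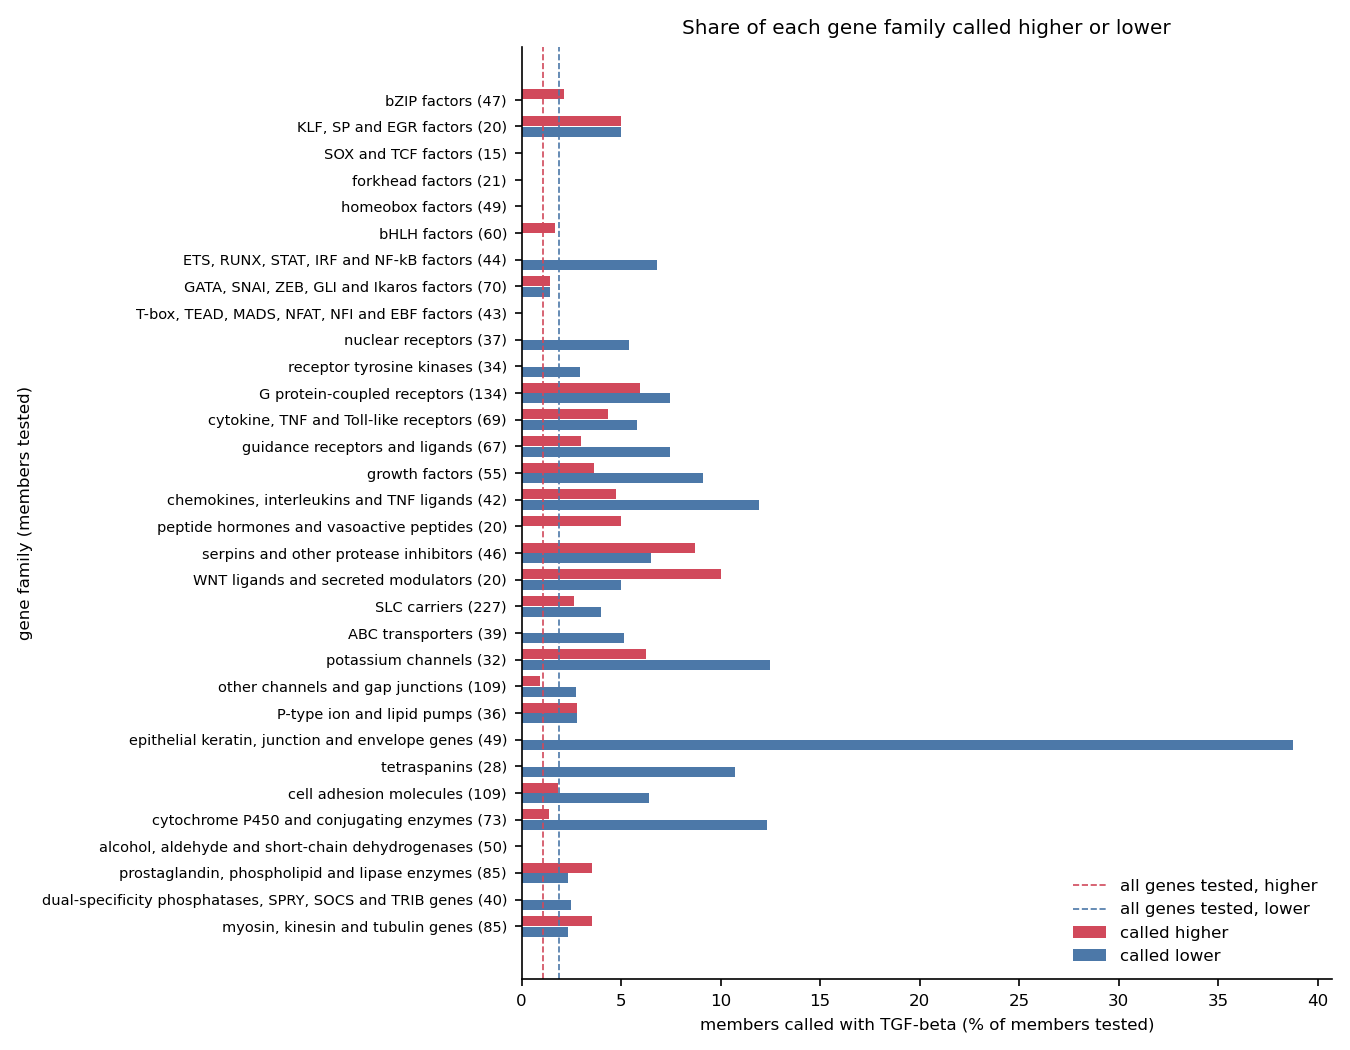
Bars give the share of measured members called higher and lower with TGF-beta (%), 1 row per gene family with the number measured in brackets, and dashed lines give the shares over all genes tested. The keratin, junction and envelope genes stand out at 38.8% lower, while several transcription factor families lie at 0%. The families were chosen with earlier results of these data known.

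The receptor class, which includes guidance ligands beside receptors, was called more often than all genes in both directions. Of 304 measured, 13 rose (4.28%) and 20 fell (6.58%), against 1.06% and 1.88% of all genes tested, with a median of -0.10. The counts without Control 1, Control 2, TGF-beta 1, TGF-beta 2, K-80003 1 and K-80003 2 were 5, 2, 3, 5, 5 and 5 higher and 7, 7, 3, 5, 9 and 9 lower. G protein-coupled and related receptors gave 8 rises and 10 falls among 134, and 4, 2, 3, 3, 3 and 3 higher and 4, 3, 1, 2, 5 and 5 lower with the libraries left out in the same order. Ackr3, an atypical chemokine receptor that takes up CXCL12 (ENSMUSG00000044337, chromosome 1, 90131702 to 90144473), stood at 2.32 and 2.32 CPM in Control and 11.99 and 13.9 CPM with TGF-beta. Ackr3 rose by 2.48 on the log2 scale (SE 0.22, adjusted p = 0.00789). Its partner in CXCL12 binding, Cxcr4, rose by 1.36, a call lost with any library left out (adjusted p = 0.0874 without Control 1, 0.167 without Control 2, 0.118 without TGF-beta 1, 0.156 without TGF-beta 2, 0.0906 without K-80003 1 and 0.0922 without K-80003 2). Fzd2, a Frizzled receptor for WNT ligands (ENSMUSG00000050288, chromosome 11, 102495222 to 102498884), went from 18.2 and 16.5 to 57.2 and 54.2 CPM. Fzd2 rose by 1.68 on the log2 scale (SE 0.14, adjusted p = 0.0061). In both Ackr3 and Fzd2 the gap between the groups was far wider than the gap within them. Adgra1, an adhesion receptor with no settled ligand, stood at 1.25 and 1.16 CPM in Control and 12.2 and 19.7 CPM with TGF-beta. Adgra1 rose by 3.72 on the log2 scale (SE 0.40, adjusted p = 0.00942). Adgra1 lost its call in 1 of the 6 fits that leave out a library, with an adjusted p of 0.0561 without Control 2.

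The receptors that fell included receptors for a lipid, for hormones and for chemokines. Gpr182, an atypical chemokine receptor of sinusoidal endothelium (ENSMUSG00000058396, chromosome 10, 127583145 to 127587601), stood at 13.3 and 13.1 CPM in Control and 2.83 and 2.898 CPM with TGF-beta. Gpr182 fell by 2.21 on the log2 scale (SE 0.20, adjusted p = 0.00789). S1pr3, a receptor for sphingosine 1-phosphate, stood at 54.6 and 42.7 CPM in Control and 13.3 and 15.3 CPM with TGF-beta. S1pr3 fell by 1.76 on the log2 scale (SE 0.18, adjusted p = 0.00881). S1pr3 lost its call in 1 of the 6 fits that leave out a library, with an adjusted p of 0.0585 without TGF-beta 1. Agtr1a, the angiotensin II receptor, was the most abundant receptor that fell by level per length, at 136 FPKM in Control and 64.3 FPKM with TGF-beta on average. Agtr1a fell by 0.96 on the log2 scale (SE 0.15, adjusted p = 0.0276). The call of Agtr1a held in none of the fits without a library (adjusted p = 0.109 without Control 1, 0.0666 without Control 2, 0.169 without TGF-beta 1, 0.147 without TGF-beta 2, 0.0979 without K-80003 1 and 0.103 without K-80003 2). Npr1, a receptor for natriuretic peptides (-1.25), Vipr1, for vasoactive intestinal peptide (-1.26), and Glp2r (-1.46) also fell. With a library left out, the highest adjusted p was 0.0969 for Npr1 without TGF-beta 1, 0.101 for Vipr1 without TGF-beta 1 and 0.12 for Glp2r without TGF-beta 1.

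Among 34 receptor tyrosine kinases, 1 fell (2.94%, against 1.88% of all genes tested) and 0 rose. This was Met, the receptor for hepatocyte growth factor, which stood at 11.7 and 8.63 CPM in Control and 2.88 and 4.32 CPM with TGF-beta. Met fell by 1.499 on the log2 scale (SE 0.28, adjusted p = 0.0477). That call was lost with any library left out (adjusted p = 0.167 without Control 1, 0.0767 without Control 2, 0.194 without TGF-beta 1, 0.0914 without TGF-beta 2, 0.0977 without K-80003 1 and 0.102 without K-80003 2). Of 69 genes matched as cytokine, TNF and Toll-like receptors, 3 rose (4.35%, against 1.06% of all genes tested) and 4 fell (5.80%, against 1.88%). Among them were Il4ra, which binds interleukin 4 and interleukin 13 (-1.06), and Cd40, a receptor of the TNF family (1.51). Il1rn, one of the 4 that fell, encodes a secreted antagonist and not a receptor. Of 67 guidance genes, 2 rose (2.99%) and 5 fell (7.46%). Flrt3, a membrane protein that binds latrophilins and UNC5 receptors (ENSMUSG00000051379, chromosome 2, 140492834 to 140513389), went from 16.3 and 12.4 to 2.32 and 2.16 CPM (log2 fold change -2.68, SE 0.24, adjusted p = 0.00789). Unc5b, a netrin receptor, rose by 1.17, and 4 semaphorins, Sema3c, Sema3e, Sema3f and Sema6b, fell by 0.80 to 2.14 on the log2 scale. Semaphorins are ligands, so that with Flrt3 and Il1rn 6 of the 20 falls of the class are not of receptors in the strict sense. Leaving out 1 library gave an adjusted p of up to 0.117 for Il4ra without TGF-beta 2, 0.078 for Cd40 without TGF-beta 1, 0.149 for Unc5b without TGF-beta 2, 0.207 for Sema3c without TGF-beta 2, 0.0585 for Sema3e without TGF-beta 1, 0.235 for Sema3f without TGF-beta 1 and 0.225 for Sema6b without TGF-beta 2.

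Secreted factors held some of the largest rises. Of 183 measured, 11 rose (6.01%) and 14 fell (7.65%), against 1.06% and 1.88% of all genes tested, with a median of -0.09, and the counts without Control 1, Control 2, TGF-beta 1, TGF-beta 2, K-80003 1 and K-80003 2 were 4, 5, 4, 6, 9 and 9 higher and 8, 5, 2, 3, 11 and 10 lower. Pyy, a peptide hormone of the gut (ENSMUSG00000017311, chromosome 11, 101997502 to 101998658), had 7 and 12 counts in Control and 191 and 131 with TGF-beta. Pyy rose by 4.03 on the log2 scale (SE 0.32, adjusted p = 0.006). It was the only one called of 20 measured peptide hormone and vasoactive peptide genes. Fstl3, a follistatin-like protein that binds activins (ENSMUSG00000020325, chromosome 10, 79613106 to 79618464), stood at 8.58 and 6.48 CPM in Control and 29.97 and 39.3 CPM with TGF-beta. Fstl3 rose by 2.202 on the log2 scale (SE 0.22, adjusted p = 0.00824). Igf1, insulin-like growth factor 1 (ENSMUSG00000020053, chromosome 10, 87694127 to 87772904), stood at 4.95 and 3.59 CPM in Control and 34.6 and 38.9 CPM with TGF-beta. Igf1 rose by 3.11 on the log2 scale (SE 0.22, adjusted p = 0.006). All 3 of these genes had low Control levels, at most 8.58 CPM, and every TGF-beta library lay more than 3 times above.

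Serpine2, a secreted inhibitor of thrombin and plasminogen activators, rose by 1.33, and Tfpi2, an inhibitor of serine proteases in the matrix, by 1.69. With a library left out, the highest adjusted p was 0.0919 for Serpine2 without TGF-beta 1 and 0.0982 for Tfpi2 without TGF-beta 1. Adamts8, a secreted metalloprotease, had 5 and 5 counts in Control and 66 and 70 with TGF-beta. Adamts8 rose by 3.71 on the log2 scale (SE 0.35, adjusted p = 0.00798). The WNT ligand Wnt9a rose by 1.35 and the neurotrophin Bdnf by 1.86. Leaving out 1 library gave an adjusted p of up to 0.0959 for Wnt9a without TGF-beta 1 and 0.0765 for Bdnf without TGF-beta 1. Trabd2b, a membrane metalloprotease that inactivates WNT ligands, stood at 11.3 and 12.9 CPM in Control and 47.3 and 62.1 CPM with TGF-beta. Trabd2b rose by 2.18 on the log2 scale (SE 0.22, adjusted p = 0.00828).

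Among secreted factors that fell, Bmp2, a ligand of the BMP branch of the TGF-beta family (ENSMUSG00000027358, chromosome 2, 133394079 to 133404805), stood at 93.5 and 96.5 CPM in Control and 24.1 and 21.9 CPM with TGF-beta. Bmp2 fell by 2.04 on the log2 scale (SE 0.14, adjusted p = 0.006). Other ligands of that family also fell, namely Gdf2, which encodes BMP9 and is made by stellate cells of the liver, at 555 and 608 CPM in Control and 195 and 202 CPM with TGF-beta (log2 fold change -1.55, SE 0.14, adjusted p = 0.00789, and 0.0535 without TGF-beta 1), and Gdf10, at 263 and 269 CPM in Control and 89 and 88.97 CPM with TGF-beta. Gdf10 fell by 1.58 on the log2 scale (SE 0.18, adjusted p = 0.011). The call of Gdf10 was lost at an adjusted p of 0.0558 without Control 2, 0.0811 without TGF-beta 1 and 0.0849 without TGF-beta 2. Cxcl5, a chemokine that attracts neutrophils (ENSMUSG00000029371, chromosome 5, 90907219 to 90909483), went from 19.8 and 24.7 to 3.05 and 2.16 CPM. Cxcl5 fell by 3.09 on the log2 scale (SE 0.25, adjusted p = 0.006). Il1rn, the interleukin 1 receptor antagonist, went from 28.5 and 28.4 to 6.33 and 6.47 CPM (log2 fold change -2.15, SE 0.17, adjusted p = 0.006), with replicates close to each other in both groups. Ccl20 (-4.69), Areg (-3.04) and Spp1 (-1.63), a chemokine, a ligand of the EGF receptor and osteopontin, fell too. Ccl20 had 23 and 34 counts in Control and 1 and 1 with TGF-beta. The latter are under the limit of 3 counts, so the size of its fall is uncertain. With a library left out, the highest adjusted p was 0.147 for Ccl20 without TGF-beta 1, 0.0982 for Areg without TGF-beta 1 and 0.0691 for Spp1 without TGF-beta 1.

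The windows before the start of raised genes were searched for the CAGA box, the element known to bind SMAD3 and SMAD4 (CAGACA, both strands, where matches of different motifs may overlap). RefSeq windows of 300 bases, from 250 before to 50 after a start, were found on GRCm38.p6 for 122 of the 170 genes that rose and 208 of the 300 that fell. The box was found in 20.2% of the windows of genes that rose, 24.2% of those that fell and 16.4% of those of all genes tested, against 21% of all windows in the table. A match is a description of the letters and not a binding site. The 250 bases before the start are shown for Fstl3 (chr10:79777024-79777273, plus strand) and for Nox4 (chr7:87246399-87246648, plus strand), as library-independent raised genes with 1 match each; capitals mark the box, which lies on the opposite strand in both, beginning 162 and 142 bases before the start.
Fstl3: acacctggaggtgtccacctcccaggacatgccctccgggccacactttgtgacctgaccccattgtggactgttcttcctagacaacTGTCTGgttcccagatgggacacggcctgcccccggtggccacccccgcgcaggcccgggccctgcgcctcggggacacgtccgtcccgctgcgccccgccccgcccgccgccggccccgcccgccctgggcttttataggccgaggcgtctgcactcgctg
Nox4: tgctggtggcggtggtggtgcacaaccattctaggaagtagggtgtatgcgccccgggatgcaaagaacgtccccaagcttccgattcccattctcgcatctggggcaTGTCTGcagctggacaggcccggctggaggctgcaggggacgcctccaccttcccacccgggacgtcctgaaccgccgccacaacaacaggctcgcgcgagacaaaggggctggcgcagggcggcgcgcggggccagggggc

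Nox4, an oxidase that makes hydrogen peroxide (ENSMUSG00000030562, chromosome 7, 86895304 to 87047918), had 21 and 18 counts in Control and 131 and 152 with TGF-beta. Nox4 rose by 2.83 on the log2 scale (SE 0.28, adjusted p = 0.00824). Other library-independent rises belonged to other families or to none. Ncam1, a neural cell adhesion molecule (ENSMUSG00000039542, chromosome 9, 49413436 to 49710225), stood at 4.198 and 5.79 CPM in Control and 44.4 and 67.1 CPM with TGF-beta. Ncam1 rose by 3.48 on the log2 scale (SE 0.28, adjusted p = 0.006). Itgb5, the integrin chain that pairs with the alpha v chain (ENSMUSG00000022817, chromosome 16, 33650035 to 33769708), was among the most abundant, at 396 and 426 CPM in Control and 1322 and 1279 CPM with TGF-beta. Itgb5 rose by 1.66 on the log2 scale (SE 0.14, adjusted p = 0.00618). Dpep1, a membrane dipeptidase that cleaves leukotriene D4, stood at 2.005 and 2.08 CPM in Control and 20.5 and 18.4 CPM with TGF-beta. Dpep1 rose by 3.25 on the log2 scale (SE 0.19, adjusted p = 0.006). Rgs4, which shortens signalling by G proteins, went from 14.7 and 16.2 to 61.5 and 56.3 CPM. Rgs4 rose by 1.93 on the log2 scale (SE 0.15, adjusted p = 0.006). Adcy7, an adenylyl cyclase, went from 8.395 and 6.6 to 25.4 and 33.97 CPM. Adcy7 rose by 1.98 on the log2 scale (SE 0.21, adjusted p = 0.00942). Csdc2, an RNA-binding protein with a cold-shock domain, rose by 2.74 and Hs6st2, a heparan sulfate 6-O-sulfotransferase, by 1.63. Kif26b, an atypical kinesin, had one of the largest rises of genes that are not library-independent, at 3.63 and 1.56 CPM in Control and 30.1 and 61.96 CPM with TGF-beta. Kif26b rose by 4.15 on the log2 scale (SE 0.56, adjusted p = 0.0181). Kif26b lost its call in 1 of the 6 fits that leave out a library, with an adjusted p of 0.0637 without Control 2.

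Transporters and channels were called in both directions. Of 443 measured, 10 rose (2.26%) and 19 fell (4.29%), against 1.06% and 1.88% of all genes tested, with a median of -0.01. The counts without Control 1, Control 2, TGF-beta 1, TGF-beta 2, K-80003 1 and K-80003 2 were 3, 1, 1, 1, 1 and 1 higher and 6, 5, 5, 5, 8 and 7 lower. Slc16a3, the lactate exporter MCT4 (ENSMUSG00000025161, chromosome 11, 120839306 to 120851694), stood at 9.77 and 11.3 CPM in Control and 37.5 and 39.3 CPM with TGF-beta (log2 fold change 1.86, SE 0.15, adjusted p = 0.006) and was the library-independent rise. Kcne4, a regulatory subunit of potassium channels, went from 96.3 and 85.97 to 228 and 203 CPM (log2 fold change 1.24, SE 0.15, adjusted p = 0.0138), but not without Control 2, either TGF-beta library or either K-80003 library (adjusted p = 0.0794 without Control 2, 0.0919 without TGF-beta 1, 0.053 without TGF-beta 2, 0.0507 without K-80003 1 and 0.0537 without K-80003 2). Other rises were those of the sodium-calcium exchanger Slc8a1 (1.99), the amino acid carriers Slc1a4 (0.899) and Slc7a6 (0.94), and the connexin gene Gja4 (1.11). Leaving out 1 library gave an adjusted p of up to 0.108 for Slc8a1 without TGF-beta 2, 0.18 for Slc1a4 without TGF-beta 1, 0.132 for Slc7a6 without TGF-beta 2 and 0.194 for Gja4 without TGF-beta 1.

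The transporters that fell included carriers of organic anions and bile acids. Abcc3, an exporter of glucuronide conjugates and bile acids (ENSMUSG00000020865, chromosome 11, 94234121 to 94283823), stood at 23.5 and 19.05 CPM in Control and 2.49 and 4.07 CPM with TGF-beta. Abcc3 fell by 2.700 on the log2 scale (SE 0.27, adjusted p = 0.00824). Slco2b1, an uptake carrier of organic anions (ENSMUSG00000030737, chromosome 7, 99307011 to 99360547), went from 20.4 and 19.6 to 3.34 and 3.64 CPM. Slco2b1 fell by 2.52 on the log2 scale (SE 0.19, adjusted p = 0.006). Slc10a2, the sodium-dependent bile acid carrier of ileum and bile ducts, had 69 and 70 counts in Control and 6 and 3 with TGF-beta. Slc10a2 fell by 3.95 on the log2 scale (SE 0.42, adjusted p = 0.00942). Slc10a2 lost its call in 2 of the 6 fits that leave out a library, with an adjusted p of 0.0544 without Control 2 and 0.053 without TGF-beta 2. Abca8a, of the A subfamily of ABC transporters, stood at 33.3 and 24.5 CPM in Control and 2.71 and 2.77 CPM with TGF-beta (log2 fold change -3.39, SE 0.31, adjusted p = 0.00789), though reads of its close paralogs may be shared. Abcc3 and Abca8a were the only called members of 39 ABC transporters (5.13% lower, against 1.88% of all genes tested). Clic5, a chloride intracellular channel protein linked to the actin cortex (ENSMUSG00000023959, chromosome 17, 44445659 to 44591059), went from 45.1 and 26.3 to 3.45 and 4.56 CPM. Clic5 fell by 3.16 on the log2 scale (SE 0.31, adjusted p = 0.00824). Among 32 potassium channel genes, Kcnq1 (-2.35), Kcnn4 (-1.89), Kcnk3 (-1.096) and Kcnk5 (-1.12) fell, or 12.5% against 1.88% of all genes tested. Rises made up 6.25%, against 1.06%. With a library left out, the highest adjusted p was 0.278 for Kcnq1 without TGF-beta 1, 0.175 for Kcnn4 without Control 2, 0.183 for Kcnk3 without TGF-beta 2 and 0.195 for Kcnk5 without TGF-beta 1.

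Of the 32 families, the one called most often was that of epithelial keratin, junction and envelope genes. The families were chosen with earlier results of these data known, so this rank is a description only. The list also held genes of other kinds, such as the mucin gene Muc1. Of 143 such genes, 49 had enough reads to be tested. That filter used all 6 libraries, and a gene can pass it through 1 group alone, also the K-80003 group. Of the 49, 19 fell (38.8%, against 1.88% of all genes tested) and 0 rose, with a median of -1.21. At an unadjusted p under 0.05, edgeR gave 34 lower and 2 higher, and DESeq2 called 25 lower and 0 higher. The number that fell was 12, 7, 7, 5, 12 and 12 without Control 1, Control 2, TGF-beta 1, TGF-beta 2, K-80003 1 and K-80003 2. Krt19, a keratin shared by bile ducts and mesothelium (ENSMUSG00000020911, chromosome 11, 100031636 to 100039491), stood at 135 and 189 CPM in Control and 27.9 and 19.4 CPM with TGF-beta. Krt19 fell by 2.78 on the log2 scale (SE 0.26, adjusted p = 0.00789). Sprr1a, a precursor of the cornified envelope (ENSMUSG00000050359, chromosome 3, 92391259 to 92393202), went from 23.4 and 18.9 to 1.19 and 0.863 CPM. Sprr1a fell by 4.35 on the log2 scale (SE 0.35, adjusted p = 0.006). Cldn2, a tight junction protein that forms paracellular channels (ENSMUSG00000047230, chromosome X, 138701577 to 138712135), stood at 18.04 and 19.2 CPM in Control and 1.75 and 2.84 CPM with TGF-beta. Cldn2 fell by 3.02 on the log2 scale (SE 0.26, adjusted p = 0.00708). Muc1, a membrane mucin of the apical surface (ENSMUSG00000042784, chromosome 3, 89136364 to 89140688), went from 37.9 and 37.6 to 5.598 and 6.97 CPM. Muc1 fell by 2.59 on the log2 scale (SE 0.18, adjusted p = 0.006). These 4 were the library-independent members.

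The paired keratins of simple epithelia, Krt8 and Krt18, fell from 295 and 417 to 94.7 and 78.5 CPM and from 204 and 310 to 78.9 and 63.2 CPM. Their log2 fold changes were -2.04 (adjusted p = 0.00977, and 0.0536 without TGF-beta 1 and 0.0675 without TGF-beta 2) and -1.85 (adjusted p = 0.0222, and 0.0811 without Control 2, 0.0924 without TGF-beta 1 and 0.138 without TGF-beta 2). Cdh1, E-cadherin, stood at 114 and 120.3 CPM in Control and 46.7 and 49.4 CPM with TGF-beta. Cdh1 fell by 1.28 on the log2 scale (SE 0.14, adjusted p = 0.00942). Cdh1 lost its call in 2 of the 6 fits that leave out a library, with an adjusted p of 0.0765 without TGF-beta 1 and 0.069 without TGF-beta 2. Tight junction genes Cgn (-1.698), Ocln (-1.299) and Cldn7 (-1.86), desmosome genes Dsg2 (-1.72) and Dsc2 (-1.41), and Esrp1, an epithelial splicing regulator (-1.73), also fell. Leaving out 1 library gave an adjusted p of up to 0.0592 for Cgn without TGF-beta 1, 0.156 for Ocln without TGF-beta 2, 0.153 for Cldn7 without TGF-beta 2, 0.19 for Dsg2 without TGF-beta 1, 0.211 for Dsc2 without TGF-beta 1 and 0.192 for Esrp1 without TGF-beta 1. Not every epithelial gene was called: Epcam stood at 45.9 and 66.6 CPM in Control and 40.4 and 32.8 CPM with TGF-beta. Epcam was not called (log2 fold change -0.62, SE 0.21, adjusted p = 0.236).

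**Figure D5:**
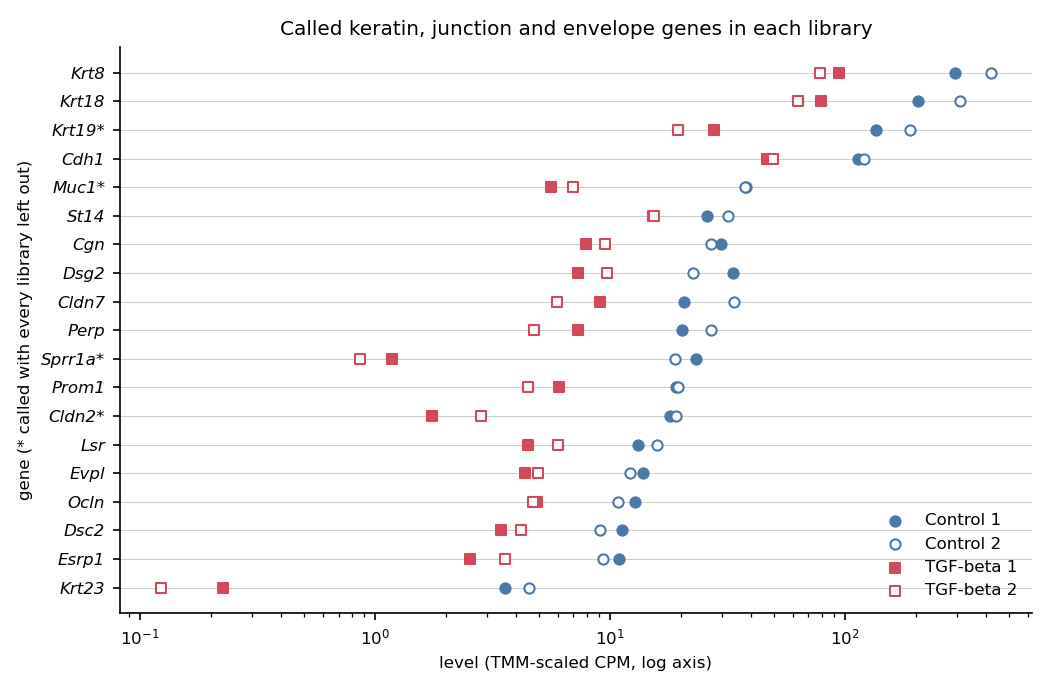
The x axis is the level in CPM on a log scale in each of the 4 libraries for the 19 keratin, junction and envelope genes that fell, ordered by their level in Control; asterisks mark the 4 called with every library left out. Circles for Control lie to the right of squares for TGF-beta in every row, from Krt8 at 295 and 417 CPM in Control down to Krt23 at 3.57 and 4.52 CPM.

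Markers of cholangiocytes moved in the same direction, while those of mesothelial cells were divided. Each of the 8 cholangiocyte markers was lower with TGF-beta in value, and 5 were called, and their summed level was 490.4 and 643 CPM in Control and 205 and 177 CPM with TGF-beta. Of 9 mesothelial markers 6 were tested, 3 fell and 1 rose, with a summed level of 572 and 799 CPM in Control and 249 and 229 CPM with TGF-beta; the defining markers Upk3b and Upk1b were at or under the floor of 3 counts in each library. The keratins are in both the family and these marker lists, and the cholangiocyte markers Cldn7, Cdh1 and Epcam are described with the family above. The marker lists are therefore not independent of the family. Msln, mesothelin (ENSMUSG00000063011, chromosome 17, 25967587 to 25973352), went from 31.2 and 36.4 to 8.88 and 8.82 CPM (log2 fold change -1.93, SE 0.16, adjusted p = 0.006), while Wt1, another mesothelial gene, stood at 2.19 and 2.32 CPM in Control and 4.75 and 3.39 CPM with TGF-beta. Wt1 was not called (log2 fold change 0.85, SE 0.56, adjusted p = 0.611). Summed levels of both lists did not overlap between the groups. Most of the mesothelial sum came from Krt8 (295 and 417 CPM in Control, 94.7 and 78.5 CPM with TGF-beta) and Krt18. Krt18 stood at 204 and 310 CPM in Control and 78.9 and 63.2 CPM with TGF-beta. The fall of that sum is thus mainly the fall of these keratins. The mesothelial marker that rose was Cdh3, at 29.3 and 24.7 CPM in Control and 55.2 and 65.6 CPM with TGF-beta. Krt19, Tspan8 and Msln were the called markers that kept their calls with every library left out. The part of these markers in the fall of the family was not tested.

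Vil1, Tspan8, Epn3, Lmo7 and Lgals4 were library-independent falls outside that family, grouped here after their values were seen. Vil1, villin of the microvillus core (ENSMUSG00000026175, chromosome 1, 74448535 to 74474718), stood at 24.2 and 25.9 CPM in Control and 4.64 and 4.13 CPM with TGF-beta (log2 fold change -2.51, SE 0.17, adjusted p = 0.006). Tspan8, a tetraspanin of digestive epithelia (ENSMUSG00000034127, chromosome 10, 115652737 to 115685798), went from 18.8 and 20.03 to 1.75 and 0.617 CPM. Tspan8 fell by 4.01 on the log2 scale (SE 0.40, adjusted p = 0.00824). Epn3, an epsin of endocytosis, fell by 3.19 on the log2 scale, Lmo7, a junction-associated protein, by 2.64, and Lgals4, a galectin of the gut, by 1.96. Each of these genes lay at least 3-fold lower in both TGF-beta libraries than in either Control library.

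The windows of genes that fell were also searched for the AP-1 site (TGANTCA) and a grainyhead-type site (AACNNGTT), the latter bound by factors of epithelial genes, on both strands. The AP-1 site was found in 12.8% of the windows of genes that fell, 14.5% of those that rose, 5.49% of those of all genes tested and 7.81% of all windows in the table. The grainyhead-type site was found in 5.13% of the windows of genes that fell, 1.73% of those that rose, 3.49% of those of all genes tested and 4.2% of all windows. The letters GGAATG, a motif of TEAD factors, were found in 15%, 14.5%, 12.6% and 14.7%, in the same order. The 250 bases before the start are shown for Sprr1a (chr3:92485882-92486131, minus strand), with 2 AP-1 matches in capitals, and for Muc1 (chr3:89228806-89229055, plus strand), with 1 grainyhead-type match in capitals, both library-independent genes of the epithelial family.
Sprr1a: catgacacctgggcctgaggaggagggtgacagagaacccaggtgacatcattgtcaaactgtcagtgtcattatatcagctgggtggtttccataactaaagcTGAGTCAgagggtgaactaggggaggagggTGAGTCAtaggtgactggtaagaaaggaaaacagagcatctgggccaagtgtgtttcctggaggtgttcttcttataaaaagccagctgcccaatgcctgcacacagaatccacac
Muc1: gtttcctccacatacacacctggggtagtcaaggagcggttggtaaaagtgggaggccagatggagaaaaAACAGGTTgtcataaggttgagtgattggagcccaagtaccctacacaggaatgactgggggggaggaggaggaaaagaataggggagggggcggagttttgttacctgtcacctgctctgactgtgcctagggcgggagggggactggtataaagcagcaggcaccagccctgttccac

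Cytochrome P450 and conjugating enzymes held 9 falls. Of 192 genes, 73 were tested, 9 fell (12.3%, against 1.88% of all genes tested) and 1 rose (1.37%, against 1.06%), with a median of -0.47, and the number that fell was 5, 3, 3, 3, 6 and 6 without Control 1, Control 2, TGF-beta 1, TGF-beta 2, K-80003 1 and K-80003 2. Cyp1a1, a drug-oxidising enzyme induced through the aryl hydrocarbon receptor (ENSMUSG00000032315, chromosome 9, 57595211 to 57611107), went from 449 and 503 to 115 and 104 CPM. Cyp1a1 fell by 2.12 on the log2 scale (SE 0.15, adjusted p = 0.006). Cyp1b1, another target of that receptor, was the member that rose, at 106 and 92.5 CPM in Control and 206 and 231 CPM with TGF-beta (log2 fold change 1.14, SE 0.16, adjusted p = 0.0196), a call lost with any library left out (adjusted p = 0.0576 without Control 1, 0.0892 without Control 2, 0.0816 without TGF-beta 1, 0.101 without TGF-beta 2, 0.0624 without K-80003 1 and 0.0659 without K-80003 2). Cyp3a13, of a subfamily that oxidises drugs and steroids (ENSMUSG00000029727, chromosome 5, 137891194 to 137919881), stood at 11.03 and 14.9 CPM in Control and 1.53 and 1.48 CPM with TGF-beta. Cyp3a13 fell by 3.104 on the log2 scale (SE 0.29, adjusted p = 0.00789). Ugt2b34, a glucuronosyltransferase with close paralogs, had 86 and 92 counts in Control and 6 and 3 with TGF-beta. Ugt2b34 fell by 4.302 on the log2 scale (SE 0.37, adjusted p = 0.00708). Ephx1, the microsomal epoxide hydrolase, was the most abundant member that fell by level per length, at 458 FPKM in Control and 201 FPKM with TGF-beta on average. Ephx1 fell by 1.07 on the log2 scale (SE 0.15, adjusted p = 0.0211). The call of Ephx1 was lost with any library left out (adjusted p = 0.0593 without Control 1, 0.111 without Control 2, 0.101 without TGF-beta 1, 0.16 without TGF-beta 2, 0.0731 without K-80003 1 and 0.0794 without K-80003 2). Of 10 hepatocyte markers 5 were tested, all 5 had lower values with TGF-beta and none was called by edgeR (1 lower at an unadjusted p under 0.05, and 1 lower with DESeq2), and Alb stood at 5.58 and 7.47 CPM in Control and 6.56 and 5.98 CPM with TGF-beta.

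Single secreted proteins outside the families above, chosen by the size or level rule or after their values were seen, also fell. Colec10, collectin liver 1 (ENSMUSG00000038591, chromosome 15, 54274170 to 54329754), stood at 438 and 311 CPM in Control and 45.4 and 65.05 CPM with TGF-beta. Colec10 fell by 2.76 on the log2 scale (SE 0.26, adjusted p = 0.00789). Colec11, with which it forms heteromers, stood at 286 and 405 CPM in Control and 95.1 and 82.9 CPM with TGF-beta. Colec11 fell by 1.96 on the log2 scale (SE 0.21, adjusted p = 0.00942). Colec11 lost its call in 2 of the 6 fits that leave out a library, with an adjusted p of 0.0535 without TGF-beta 1 and 0.0624 without TGF-beta 2. Sftpd, the collectin surfactant protein D (ENSMUSG00000021795, chromosome 14, 40894171 to 40907106), had 147 and 170 counts in Control and 7 and 4 with TGF-beta (log2 fold change -4.85, SE 0.38, adjusted p = 0.006) and was the largest library-independent fall. Igfbp5, a carrier of insulin-like growth factors (ENSMUSG00000026185, chromosome 1, 72897091 to 72914043), had 170 and 100 counts in Control and 7 and 6 with TGF-beta. Igfbp5 fell by 4.395 on the log2 scale (SE 0.43, adjusted p = 0.00824). Ndnf, a secreted neurotrophic factor (ENSMUSG00000049001, chromosome 6, 65648574 to 65689310), had 127 and 141 counts in Control and 4 and 10 with TGF-beta. Ndnf fell by 4.25 on the log2 scale (SE 0.42, adjusted p = 0.00824). Adamts13, the protease that cleaves von Willebrand factor and is made by stellate cells (ENSMUSG00000014852, chromosome 2, 26863428 to 26899640), went from 45.5 and 36.9 to 11.99 and 10.97 CPM. Adamts13 fell by 1.84 on the log2 scale (SE 0.18, adjusted p = 0.00824). Sparcl1, a matricellular protein (ENSMUSG00000029309, chromosome 5, 104226977 to 104261599), stood at 91.7 and 98.5 CPM in Control and 29.01 and 25.8 CPM with TGF-beta. Sparcl1 fell by 1.79 on the log2 scale (SE 0.14, adjusted p = 0.006).

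Apoe, the apolipoprotein of remnant lipoproteins, had the highest level per length among genes that fell, at 509 FPKM in Control and 105 FPKM with TGF-beta on average, and stood at 767 and 1339 CPM in Control and 271 and 199.8 CPM with TGF-beta. Apoe fell by 2.16 on the log2 scale (SE 0.34, adjusted p = 0.0292). Its replicates differed widely, and its adjusted p was 0.0931 without Control 2, 0.0982 without TGF-beta 1 and 0.151 without TGF-beta 2. Clu, the extracellular chaperone clusterin, stood at 1301 and 1698 CPM in Control and 717 and 585 CPM with TGF-beta (log2 fold change -1.203, SE 0.20, adjusted p = 0.0328), a call lost at an adjusted p of 0.143 without Control 2, 0.106 without TGF-beta 1, 0.188 without TGF-beta 2, 0.0807 without K-80003 1 and 0.0889 without K-80003 2. Cavin2, a coat protein of caveolae (ENSMUSG00000045954, chromosome 1, 51328285 to 51342119), went from 43.2 and 42.7 to 10.01 and 10.9 CPM (log2 fold change -2.04, SE 0.15, adjusted p = 0.006), and Mboat1, an acyltransferase of lysophospholipids, went from 21.4 and 21.9 to 6.22 and 5.49 CPM. Mboat1 fell by 1.89 on the log2 scale (SE 0.18, adjusted p = 0.00789).

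Markers of sinusoidal endothelial cells mostly had lower values with TGF-beta, with a median log2 fold change of -0.87. Stab1 (-1.29) and Stab2 (-0.92) had lower values and were not called. Cdh5 alone had a higher value (0.32) and was not called. Of 11 tested, 10 had lower values, 4 fell, and the summed level was 823 and 627 CPM in Control and 437 and 557 CPM with TGF-beta, with no overlap. Clec4g, a lectin of that endothelium (ENSMUSG00000074491, chromosome 8, 3757064 to 3770651), had 156 and 235 counts in Control and 15 and 10 with TGF-beta. Clec4g fell by 3.98 on the log2 scale (SE 0.38, adjusted p = 0.00789). Lyve1, a hyaluronan receptor, fell by 2.31 on the log2 scale (adjusted p = 0.0126, and 0.0518 without Control 2 and 0.0641 without TGF-beta 1), and Fcgr2b, an Fc receptor, by 1.19 (adjusted p = 0.011, and 0.0509 without Control 2, 0.0919 without TGF-beta 1, 0.0883 without TGF-beta 2 and 0.0503 without K-80003 2). The general endothelial markers Pecam1, at 77.1 and 73.6 CPM in Control and 61.2 and 66.96 CPM with TGF-beta (log2 fold change -0.23, SE 0.14, adjusted p = 0.558), and Tie1, at 38.8 and 44.2 CPM in Control and 40.3 and 38.1 CPM with TGF-beta (log2 fold change -0.08, SE 0.14, adjusted p = 0.911), were not called, and their groups overlapped for Tie1. Erg, described above, is among the 4 called markers. Gpr182, also described above, is known from the same cells, and the part of these markers in its fall was not tested. Of 8 portal fibroblast markers 5 were tested and 3 rose, Eln, Fbln2 and Mfap4 (of which Eln kept its call with every library left out). The summed level was 99.1 and 74.9 CPM in Control and 338 and 373 CPM with TGF-beta, most of it from Eln and Fbln2. The other tested markers, Cd34 (log2 fold change -1.60) and Entpd2 (-0.21), had lower values and were not called. Cd34 stood at 3.88 and 3.07 CPM in Control and 1.41 and 0.863 CPM with TGF-beta. Mfap4 stood at 0 and 0.058 CPM in Control and 2.04 and 2.28 CPM with TGF-beta. Its rise thus began under the limit of 3 counts, and its size is uncertain. Thy1 stayed under 1 CPM in each library.

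Other families had between 0 and 9 calls. None of 50 alcohol, aldehyde and short-chain dehydrogenases was called by edgeR, with 4 higher and 7 lower at an unadjusted p under 0.05, and DESeq2 called 2 higher and 3 lower. Of 85 prostaglandin, phospholipid and lipase genes, 3 rose and 2 fell, and of 85 myosin, kinesin and tubulin genes, 3 rose and 2 fell, each 3.53% and 2.35% against 1.06% and 1.88% of all genes tested. Of 109 adhesion molecules of the immunoglobulin, protocadherin and cadherin families, 2 rose, Ncam1 and Cdh3 (1.83%), and 7 fell (6.42%). Of 40 dual-specificity phosphatase, SPRY, SOCS and TRIB genes, which limit kinase and cytokine signals, 1 fell (2.5%, against 1.88% of all genes tested) and 0 rose. This was Dusp1, at 131 and 139 CPM in Control and 78.5 and 74.7 CPM with TGF-beta (log2 fold change -0.82, SE 0.14, adjusted p = 0.0347). The call of Dusp1 was lost with any library left out.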

How the data were processed

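Per the labels' protocols, polyadenylated RNA was fragmented, randomly primed and sequenced as bulk libraries. The authors deposited 1 table with whole-number read counts, not normalized, and FPKM values for each library, on GRCm39. The submitters' processing notes list HTSeq 0.6.1, HISAT2 2.0.1, Cufflinks 2.2.1, DESeq2, cutadapt 1.9.1 and SAMtools 0.1.19, without a role or an order. No strand setting is given in the sources used here. Reads of close paralogs, and of genes overlapping on the other strand, can therefore not be assigned with certainty.

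Counts were filtered with edgeR's filterByExpr (minimum count 10, minimum total 15; the genes left out held 0.13% of counts), scaled by TMM and tested with edgeR 4.0.16's quasi-likelihood test in R 4.3.3, two-sided, in 1 fit to all 6 libraries with a mean per group (3 residual and 3.45 prior degrees of freedom, common dispersion 0.038). The SE of a log2 fold change is its size divided by the square root of the test's F. The procedure was tested on simulated counts drawn with the common dispersion for every gene. They held no difference between replicates that follows gene length, so that test does not cover such a difference. Replicates differed by more than counting noise (chi-square per degree of freedom of 52.5 in Control and 48.0 in TGF-beta) and were counted separately. Alternatives were other scalings and filters, DESeq2 1.42.0, limma 3.58.1, a replicate block and each library left out.

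Gene families (32 lists, by symbol) and 10 marker lists were chosen with earlier results of these data known, as was the comparison itself. Genes named are the 12 with the largest library-independent rises and falls at 5 FPKM or more, up to 3 library-independent calls in each direction per family or else its member with the smallest p, the most abundant library-independent calls, and the 3 most abundant of each marker list; others were chosen after their values were seen. Where an adjusted p follows "without" a library, it comes from the fit that leaves that library out. Sequences are RefSeq's, on GRCm38.p6, and are not converted to GRCm39. A few genes that meet these rules are not reported here.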

Additional observations from a re-analysis of the deposited data

How the results depend on the processing

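Across the alternatives run, 0 genes were called in the direction opposite to the main result. Against 170 higher and 300 lower, there were 417 and 726 without the low-count filter, 334 and 512 with DESeq2, 103 higher with limma on log2(FPKM + 1), 89 higher with limma on log2(FPKM + 0.1), and 71 and 128 with the 4 libraries alone. The fits that left out 1 library gave 38 to 77 higher and 42 to 141 lower. Those fits hold fewer samples by construction. Median-of-ratios scaling, upper-quartile scaling, limma-voom and a filter at 50 counts gave counts within 1.5 times the main ones. Of the genes named by rule, 86 in all, 63 were called and 45 were called with every library left out.

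The difference of replicate 1 and 2 correlated across 9756 genes at -0.87 between Control and TGF-beta, at 0.82 between Control and TGF-beta with K-80003 and at -0.82 between TGF-beta and TGF-beta with K-80003, so the numbers do not pair Control with TGF-beta, and a replicate block on the numbers left 18 higher and 22 lower. With the TGF-beta numbers crossed in the block, chosen after seeing the data, there were 1900 higher and 1808 lower, and 2297 and 2150 in the 4 libraries alone, including all 170 and 300 of the main result; in the 6 libraries 51.2% of the called genes were then higher, against 36.2%.

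The log2 fold changes of 5 named genes that were not called changed sign in some settings. With a library left out they ran from -0.048 (without TGF-beta 1) to 1.53 for Adgre1, from -0.25 to 0.17 (without Control 2) for Alb, which was at 0.025 without TGF-beta 2, from -0.0185 (without Control 2) to 0.74 for Cdh5, from -0.34 to 0.11 (without Control 1) for Csf1r, which was at 0.092 without TGF-beta 1, and from -0.19 (without TGF-beta 2) to 0.36 for Myh11, which was at -0.0252 without Control 2. Alb was at 0.035 with the replicate block. Myh11 was at -0.00594 with library totals, at -0.024 with limma on log2(FPKM + 1) and at -0.026 with limma on log2(FPKM + 0.1). The cause of these changes was not tested.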
